A study of Mus musculus with 9 samples.

Results

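The comparison of 1% with 21% oxygen, severe low oxygen against room air, was described across genes in mouse corneal epithelial cells. Members were the 11607 of 26445 entries of the expression table with at least 1 FPKM (fragments scaled to transcript length and to the library's mapped fragments) in at least 3 of the 6 libraries at these oxygen levels. The gene just inside this limit was Gm9267, whose deciding value was 1.0001 FPKM, and the gene just outside was Gm49785 at 0.99989. The study profiled messenger RNA of the cultured line iCell-0093a, of wild-type genotype (WT in the labels), held at 21%, 8% or 1% oxygen, with 3 libraries per level. Libraries were TruSeq Stranded mRNA preparations from 1 µg of total RNA extracted with TRIzol. The 21% libraries are the controls, the 1% libraries carry the treatment, and the 8% libraries entered only the estimate of the spread and a test of 1% against 8%. The labels do not say how long the cells stayed at each level or whether replicates were separate cultures, so p-values measure only the spread between these libraries, which may be technical. No counts were used here and sequencing depth is unknown, so no counting interval is given.

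Cells sense oxygen through prolyl hydroxylases, which mark the alpha subunits of hypoxia-inducible factors (HIF) for destruction while oxygen is present. When oxygen falls, HIF builds up and switches on genes for glycolysis, blood vessel growth, pH control and mitophagy, the removal of mitochondria by autophagy. Low oxygen is also known to slow protein synthesis and ribosome production and to act on the folding of secreted proteins, through sensors that converge on the transcription factors ATF4, XBP1 and ATF6. The corneal epithelium is an avascular surface tissue that takes its oxygen from air through the tear film and, with the lid closed, from conjunctival vessels.

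Each of the 9 libraries summed to 317704 to 333178 FPKM, of which mitochondrial genes took 6.02% to 8.52%. Within 21% oxygen the Pearson correlation between libraries, taken over genes and so not over replicates, lay between 0.9705 and 0.9826, within 1% between 0.985 and 0.9869, and between the levels between 0.9723 and 0.9814. The 21% libraries were the most spread, with a median SD per gene of 0.1308 on the log2 scale against 0.0855 at 1% and 0.0867 at 8%. They differed among themselves in cell cycle genes: the median of 44 mitosis genes, each centred on its own average of the 6 libraries, was −0.13, −0.53 and 0.57 in 21% replicates 1, 2 and 3 and 0.16, 0.17 and −0.20 in the 1% libraries. Its part in the results below was not tested. Among genes tied to the labelled corneal identity, Pax6, the eye field regulator, reached at most 0.0208 FPKM and Trp63, the basal epithelial regulator, at most 0.836. Of the 25 markers of corneal and stratified epithelium in the table, which include Pax6 and Trp63, 14 passed the filter, among them Krt14 at 41.4 to 81.9 FPKM. The 25 summed to 303 to 371 FPKM in these 6 libraries, and 12 markers of simple epithelium to 1278 to 1804. The corneal identity given by the labels was not tested.

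Between 1% and 21% oxygen 532 genes passed an adjusted p of 0.05, which is 4.58% of the genes tested. Of these, 168 (1.45%) were higher and 364 (3.14%) lower at 1%. The largest rises were in mitochondrial tRNA genes and in secreted and matricellular protein genes, and the largest falls were in small nucleolar RNA genes, Lsm12, the p38 kinase gene Mapk14, growth factor and metal transport genes, and genes of amino acid supply. Changes were small: the median size among called genes was 0.41 on the log2(FPKM + 1) scale, and 10 called genes rose and 7 fell by at least 1. All 532 had 1% values that did not overlap the 21% values, a state shared by 28.6% of the tested genes (9.07% higher and 19.6% lower at 1%). The middle of the whole distribution lay at −0.05, with 4613 estimates above 0 and 6994 below it.

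The number of calls depended on the libraries that entered. Leaving out 1% replicates 1, 2 or 3 gave 64, 75 or 213 calls, and leaving out 21% replicates 1, 2 or 3 gave 116, 288 or 915. A fit to the 6 libraries alone gave 74 calls. Rescaling changed the balance of directions, with 178 higher and 192 lower after quantile normalization and 232 higher and 193 lower after median-ratio rescaling. In all, 47 genes were called under all of the 14 alternatives in which they could be tested, 17 higher and 30 lower, and a gene called "kept" below is one of these. Among them were Antxr2 (an anthrax toxin receptor), Slc4a2 (an anion exchanger), Rcc1 (the nucleotide exchange factor of Ran), Cdca7 (a Myc target), Steap1 (a metalloreductase family member) and Adh7 (a retinol and alcohol dehydrogenase), which fell by 0.72, 0.63, 0.60, 0.63, 0.50 and 0.69 and were picked out after their values were seen.

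**Figure D1:**
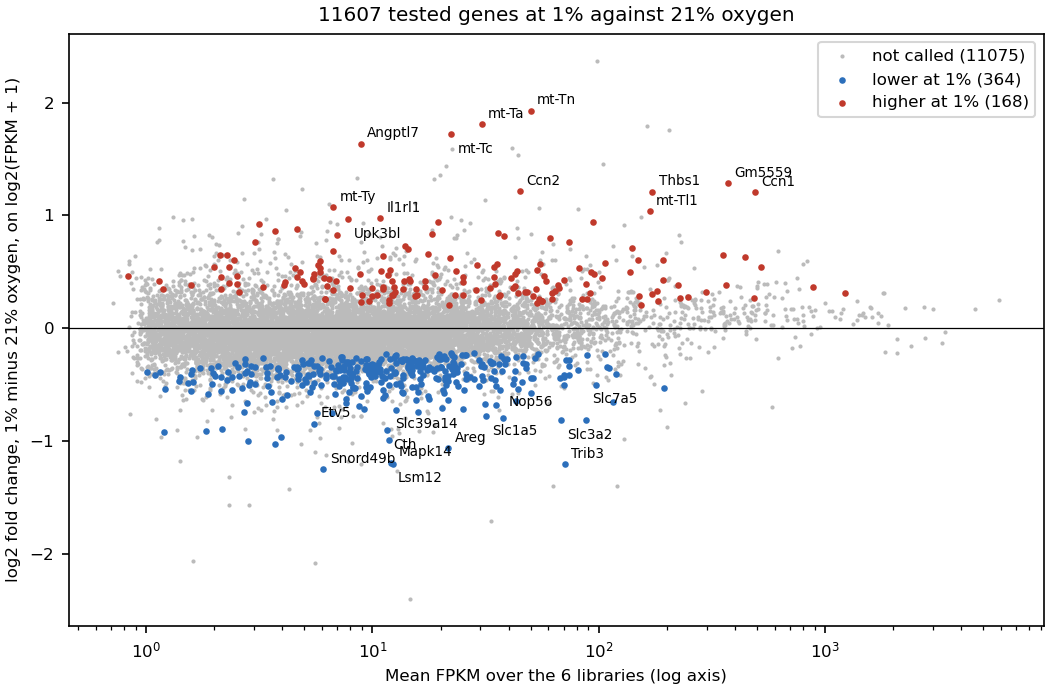
Mean FPKM over the 6 libraries (log axis) against the log2 fold change of 1% minus 21% oxygen for the 11607 tested genes, with 168 genes called higher in red, 364 called lower in blue and the others in grey. Labels mark the 12 strongest called genes in each direction whose mean reached 5 FPKM, which run up to mt-Tn at 1.93 and down to Snord49b at −1.25, while some grey points lie farther out because their libraries were more spread.

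Transcripts of the oxygen-sensing pathway itself gave 1 call. Hif1a, the alpha subunit that oxygen destabilizes, measured 54.0, 51.8 and 64.7 FPKM at 21% and 51.4, 45.8 and 48.0 at 1% (log2 fold change −0.22, 95% interval −0.42 to −0.02, adjusted p = 0.174), and Epas1, which encodes HIF-2 alpha, stayed at or below 0.0421 FPKM. HIF is controlled mainly through its protein, which was not measured. Egln3, the prolyl hydroxylase that HIF itself induces, rose from 32.1, 31.3 and 34.5 to 41.8, 40.1 and 38.3 FPKM (log2 fold change 0.29, SE 0.06, adjusted p = 0.0443). It was the only called gene among the 7 tested components of the pathway, which is 14.3% against 4.58% of all genes. Its groups did not overlap, yet the call was lost when any of 1% replicates 1, 2 and 3 or 21% replicates 1 and 2 was left out (adjusted p between 0.0709 and 0.146).

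Of 31 tested HIF targets outside glycolysis, 4 rose and 1 fell, so 16.1% were called against 4.58% of all genes. In this list 26 of 31 estimates were above 0 and the median was 0.22 against −0.05 for all genes. Adm, the vasodilator peptide adrenomedullin, rose from 2.34, 2.93 and 1.79 to 5.49, 4.90 and 4.76 FPKM (0.86, SE 0.14, adjusted p = 0.0180). Bhlhe40, a transcriptional repressor of the clock family, rose by 0.85 (SE 0.19, adjusted p = 0.0465), and Nfil3, a bZIP repressor, fell by 0.44 (adjusted p = 0.0429). None of these 3 was kept. Adm lost its call without 1% replicate 1 or 2 or 21% replicate 1 (adjusted p between 0.0625 and 0.0805), and Bhlhe40 and Nfil3 without any of 1% replicates 1, 2 and 3 or 21% replicates 1 and 2 (adjusted p between 0.063 and 0.152). Without 21% replicate 3 the count of the list was 10 higher and 1 lower, and with another library left out it was 1 or 2 higher and 0 lower.

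Several textbook hypoxia genes did not pass the test. Car9, the carbonic anhydrase of acid export, measured 37.3, 24.6 and 47.4 FPKM at 21% and 65.6, 67.1 and 57.8 at 1% (0.83, 95% interval 0.35 to 1.31, adjusted p = 0.0608), so its groups did not overlap, and it passed without 21% replicate 3 (adjusted p = 0.024). Vegfa, the main angiogenic growth factor, measured 23.2, 26.3 and 24.1 against 20.6, 22.8 and 25.5 FPKM (−0.09, 95% interval −0.30 to 0.12, adjusted p = 0.588). Ndrg1, a stress and differentiation gene, measured 450, 480 and 429 against 485, 458 and 499 FPKM (0.09, adjusted p = 0.549). For Vegfa and Ndrg1 the groups overlapped, and the intervals leave out a rise of the size seen for Adm. Ankrd37, a small HIF target, measured 1.24, 0.874 and 2.46 against 1.93, 1.83 and 1.78 FPKM (0.22, adjusted p = 0.534, and 0.0327 without 21% replicate 3).

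Glycolysis genes also had mostly positive estimates, and 13.0% of the tested list was called, against 4.58% of all genes. Of 23 tested genes of glycolysis and lactate export, 18 had estimates above 0, the median was 0.26, 2 rose and 1 fell. The aldolase gene Aldoa rose from 364, 286 and 402 to 537, 580 and 499 FPKM (0.63, SE 0.13, adjusted p = 0.0413) and its paralogue Aldoc by 0.56 (adjusted p = 0.0453). Slc16a1, the lactate transporter MCT1, fell from 33.8, 35.0 and 35.6 to 28.3, 27.3 and 26.3 FPKM (−0.34, SE 0.05, adjusted p = 0.0177). None of the 3 was kept: both aldolase calls were lost without any of 1% replicates 1, 2 and 3 or 21% replicates 1 and 2 (adjusted p between 0.0596 and 0.152), and that of Slc16a1 without any of 1% replicates 1, 2 and 3 or 21% replicate 1 (between 0.0507 and 0.0803).

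For the other enzymes the 21% libraries were widely spread. Ldha, which reduces pyruvate to lactate, measured 268, 205 and 397 FPKM at 21% and 377, 355 and 306 at 1% (0.30, 95% interval −0.24 to 0.84, adjusted p = 0.483). Pgk1, a phosphoglycerate kinase, measured 432, 360 and 663 against 799, 808 and 669 FPKM (0.69, adjusted p = 0.0989, and 0.0199 without 21% replicate 3). In both genes 21% replicate 3 held the highest and replicate 2 the lowest of the control values. Over the list, the median deviation from the 6-library mean was −0.13, −0.35 and 0.06 in the 21% libraries and 0.13, 0.19 and 0.08 in the 1% libraries. The glucose transporter gene Slc2a1 (28.5, 27.5 and 32.7 against 29.6, 28.1 and 33.3 FPKM, adjusted p = 0.835) and the pyruvate dehydrogenase kinase gene Pdk1 (10.7, 8.14 and 15.0 against 13.2, 12.4 and 11.3 FPKM, adjusted p = 0.661) overlapped between levels. Without 21% replicate 3 the list had 6 higher and 1 lower, without 21% replicate 2 it had 1 and 1, and without any other single library, or in the fit to the 6 libraries, it had no call (9 higher and 1 lower at an unadjusted p under 0.05 with all 9). Gapdh, picked out after its values were seen, was listed at 7.06 to 28.2 FPKM, a level at which reads may have been divided with its many processed pseudogenes.

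**Figure D2:**
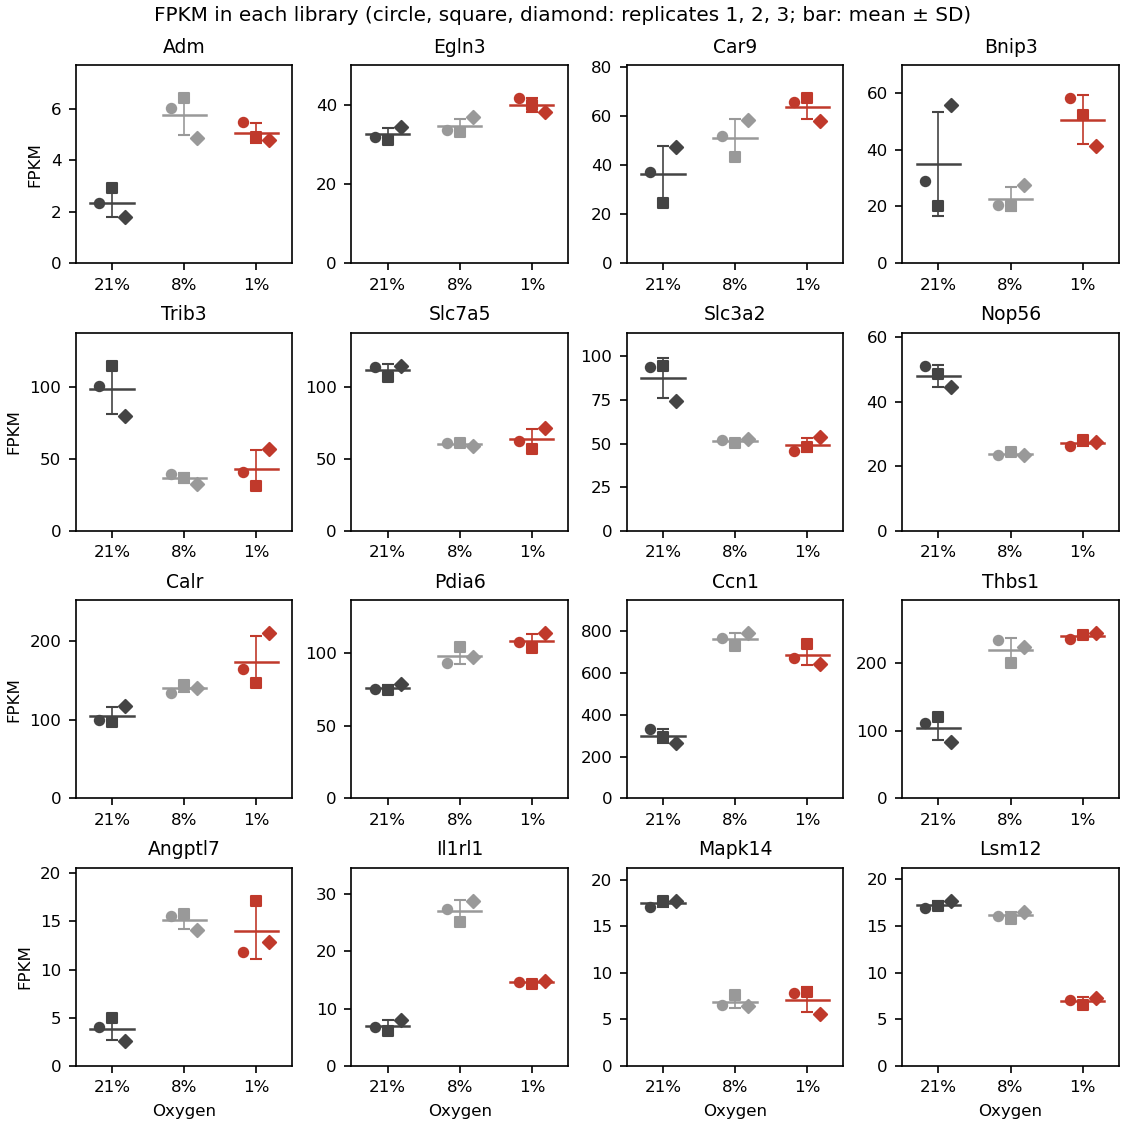
FPKM of 16 genes in each library at 21%, 8% and 1% oxygen (linear axes from 0, with circle, square and diamond for replicates 1, 2 and 3 and lines and bars for mean ± SD, n = 3). Bnip3 at 21% spans 20.3 to 55.6 FPKM, whereas Lsm12 at 1% spans 6.48 to 7.31 and lies below both other levels.

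The lowest median of the 47 lists was that of genes of amino acid supply that ATF4, the effector of the integrated stress response, is known to drive. Of 27 tested genes of this list 12 fell and none rose (21 fell at an unadjusted p under 0.05, none rose), all 27 estimates were negative, and the median was −0.53 against −0.05 for all genes. The share called was 44.4%, against 4.58% of all genes. The list held 12 called genes also after quantile normalization and after median-ratio rescaling, 5 in the fit to the 6 libraries, 7 with the replicate number as a block, 8 with no filter on low values, and 6 to 15 with single libraries left out (6 without 1% replicate 1, 7 without 1% replicate 2, 8 without 21% replicate 1, 9 without 21% replicate 2). The ATF4 composite element, the C/EBP-ATF site through which ATF4 acts with C/EBP partners, was searched as TGATGNAA on both strands of RefSeq promoters on GRCm38.p6, which run from 250 bases before to 50 after the start. It lay in 1.95% of the 8244 promoters of tested genes and in 8 of 25 on this list, including those of the called genes Chac1, Slc7a11 and Trib3. It also lay in 5 of 13 promoters of cytosolic aminoacyl-tRNA synthetases. The stretches below are printed because they belong to genes that fell and hold the element, in capitals, upstream of the start:
Chac1, chr2:119351019-119351086, plus strand: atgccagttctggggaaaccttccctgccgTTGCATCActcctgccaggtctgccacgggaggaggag
Slc7a11, chr3:50443642-50443709, minus strand: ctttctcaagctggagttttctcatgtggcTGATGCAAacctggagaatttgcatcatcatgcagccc
Aars, chr8:111033700-111033767, plus strand: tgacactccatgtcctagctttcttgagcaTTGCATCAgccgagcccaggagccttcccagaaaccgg
Tars, chr15:11399659-11399703, minus strand: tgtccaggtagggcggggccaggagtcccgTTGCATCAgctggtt
The Slc7a11 stretch holds a second match on the other strand, and the Chac1, Aars and Tars matches lie on the strand opposite to the gene. Among called genes with a promoter entry, 17 of 293 that were lower (5.8%) and 0 of 121 that were higher held the element, against 1.84% of those not called. These matches are a description of letters, not of binding.

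Among the genes that fell were amino acid transporters. Slc7a5, the light chain of the large neutral amino acid transporter (chromosome 8, 121881150 to 121907694 on GRCm38), fell from 114, 107 and 115 to 62.1, 56.9 and 71.7 FPKM (−0.81, SE 0.08, adjusted p = 0.00509). Its partner Slc3a2, the shared heavy chain (chromosome 19, 8706882 to 8723369), fell from 94.0, 94.6 and 74.2 to 45.6, 47.9 and 53.8 FPKM (−0.82, SE 0.10, adjusted p = 0.00803). Both subunits of the one transporter thus fell by about the same amount. The glutamine transporter Slc1a5 fell from 41.3, 37.7 and 41.5 to 23.0, 20.5 and 25.7 FPKM (−0.78, adjusted p = 0.00599), and Slc7a1, the cationic amino acid transporter, by 0.71 (adjusted p = 0.00777). These 4 genes were kept. Slc7a11, the cystine transporter whose promoter is shown above, fell from 1.99, 1.60 and 2.05 to 0.525, 0.312 and 0.744 FPKM (−0.92, adjusted p = 0.00948), and lost its call only in the fit to the 6 libraries, where the adjusted p was 0.0505.

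Some enzyme genes of the same list also fell. Gpt2, the mitochondrial alanine aminotransferase, fell from 21.8, 19.1 and 19.8 to 11.9, 10.5 and 12.8 FPKM (−0.74, SE 0.09, adjusted p = 0.00719), and Shmt2, the mitochondrial serine hydroxymethyltransferase of one-carbon metabolism, from 150, 133 and 140 to 88.4, 81.6 and 98.6 (−0.65, SE 0.08, adjusted p = 0.0082). Both were kept. Trib3, a pseudokinase that feeds back on ATF4, had the largest fall of the list, from 101, 115 and 80.3 to 40.9, 31.3 and 57.0 FPKM (−1.20, SE 0.21, adjusted p = 0.0243). Cth, which makes cysteine, fell by 0.90 (adjusted p = 0.0329). Chac1, which degrades glutathione, and Mthfd2, a folate enzyme, both named after their values were seen, fell by 0.53 and 0.65 (adjusted p = 0.0149 and 0.0126). Trib3 and Cth lost their calls without 1% replicate 1 or 2 or 21% replicate 1 or 2, Cth also without 1% replicate 3 (adjusted p between 0.0537 and 0.126), Chac1 without 1% replicate 1 or 2 (0.0651 and 0.0678) and Mthfd2 without 1% replicate 1 (0.0572).

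Transcripts of Atf4 itself varied more within levels than between them, at 200, 119 and 257 FPKM at 21% and 167, 81.2 and 184 at 1% (−0.43, 95% interval −1.37 to 0.51, adjusted p = 0.574). ATF4 is controlled mainly through its translation, which was not measured. Asns, asparagine synthetase, also named after its values were seen, measured 144, 131 and 98.5 against 86.7, 84.6 and 102 FPKM (−0.43, adjusted p = 0.122, and 0.0282 without 21% replicate 3). Phgdh, which opens serine synthesis, measured 228, 220 and 199 against 179, 174 and 189 FPKM (−0.26, adjusted p = 0.0704, and 0.0292 without 21% replicate 3), with groups that did not overlap.

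Aminoacyl-tRNA synthetases, which charge tRNAs with amino acids, had negative estimates with 1 exception. Of the 20 cytosolic enzymes tested 9 fell and 1 rose, with a median of −0.32 and 19 negative estimates. Tars, for threonine, fell from 64.8, 59.5 and 56.5 to 42.3, 35.3 and 42.8 FPKM (−0.58, SE 0.08, adjusted p = 0.0144). Gars, for glycine, fell from 119, 114 and 112 to 77.9, 76.7 and 87.4 FPKM (−0.51, adjusted p = 0.0121), and Lars, Aars, Nars and Yars, for leucine, alanine, asparagine and tyrosine, fell by 0.51, 0.55, 0.41 and 0.38 (adjusted p between 0.0149 and 0.0464). Qars, for glutamine, went the other way and rose by 0.25 (adjusted p = 0.0327). Yars and Qars lie outside the rule for named genes and were chosen after their values were seen, as was every gene so marked below. None of these calls was kept: that of Tars was lost in the fit to the 6 libraries (adjusted p = 0.065), those of the other named enzymes without 1% replicate 1 or 2 and in most cases without a further library (adjusted p between 0.0503 and 0.152), and the list had 1 call without 1% replicate 1 or 2, 2 without 21% replicate 1, 5 without 21% replicate 2 and 6 without 1% replicate 3. Median-ratio rescaling left 5 lower and 1 higher, the fit to the 6 libraries 2 lower and the replicate block 1 lower.

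**Figure D3:**
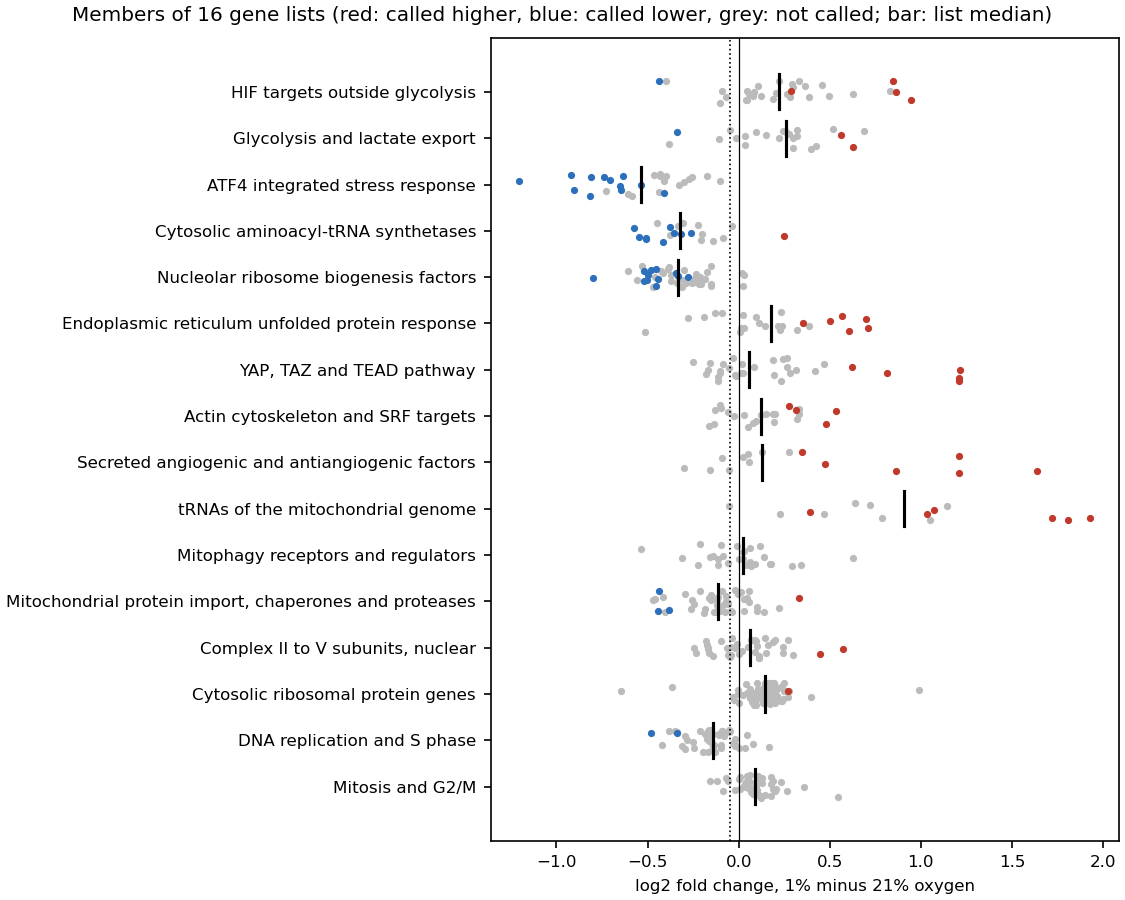
Log2 fold change (1% minus 21% oxygen) of each tested member of 16 gene lists, one point per gene, red for called higher, blue for called lower and grey for not called. The bar marks each list's median and the dotted line the median of all tested genes (−0.05): the ATF4 list lies wholly below 0 (median −0.53) and the mitochondrial tRNA list almost wholly above it (median 0.91).

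Nucleolar factors build ribosomal subunits. Of 44 tested, 12 fell and none rose (35 fell at an unadjusted p under 0.05, none rose), 41 estimates were negative and the median was −0.34. This made 27.3% called, against 4.58% of all genes. Nop56, a core protein of box C/D snoRNPs that guide rRNA methylation (chromosome 2, 130274430 to 130279313), fell from 51.2, 48.7 and 44.5 to 26.2, 28.1 and 27.4 FPKM (−0.80, SE 0.06, adjusted p = 0.00131). Its partner Nop58 fell from 15.4, 12.7 and 13.9 to 9.54, 8.34 and 10.9 FPKM (−0.50, adjusted p = 0.0316). Wdr43, of the small subunit processome, and Ncl, nucleolin, both outside the naming rule, fell by 0.45 and 0.34 (adjusted p = 0.0340 and 0.0447). Only Nop56 of these was kept, and Nop58, Wdr43 and Ncl were lost without 1% replicate 1 or 2 or 21% replicate 1, Wdr43 and Ncl also without 21% replicate 2 and Ncl without 1% replicate 3 (adjusted p between 0.0642 and 0.155). The list had 1 call in the fit to the 6 libraries, without 1% replicate 1, without 1% replicate 2 or without 21% replicate 1, 2 with no filter on low values, 4 without 21% replicate 2, 5 without 1% replicate 3 and 26 without 21% replicate 3. Quantile normalization left 7 lower and median-ratio rescaling 8.

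Genes of the finished ribosome gave 1 call. Among 78 cytosolic ribosomal protein genes 1 rose and none fell (1.28% called against 4.58% of all genes), with a median of 0.15. In all, 72 estimates were above 0, 26 genes were higher and 1 lower at an unadjusted p under 0.05, and 39 did not overlap and were higher, against 9.07% of all genes. After quantile normalization the median came to 0.02 and 30 estimates were negative. The call, Fau, which encodes the ribosomal protein eS30, rose from 464, 440 and 416 to 529, 519 and 545 FPKM (0.27, adjusted p = 0.0420, and 0.423 after quantile normalization). It was lost without any of 1% replicates 1, 2 and 3 or 21% replicates 1 and 2 (adjusted p between 0.0701 and 0.131). Reads of these genes may be divided with processed pseudogenes, and their levels are uncertain for that reason. The nucleolar and ribosomal protein lists were not tested against each other.

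Lsm12, an RNA-binding protein of the LSM family (chromosome 11, 102162497 to 102185296), had the smallest adjusted p of the protein-coding genes named here. It measured 16.9, 17.1 and 17.7 FPKM at 21% and 7.08, 6.48 and 7.31 at 1% (−1.20, SE 0.06, adjusted p = 7.55e-05), and it was kept. At 8% its mean was 16.1 FPKM, and 1% lay below 8% by 1.11 (adjusted p = 0.000293). Of the other tested members among 20 LSM and Sm genes only Lsm2, a subunit of the U6 snRNA ring, was called, at −0.45 (adjusted p = 0.0490), a call that leaving out any single library ended (adjusted p between 0.0516 and 0.146).

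Several chaperone genes of the endoplasmic reticulum rose. Of 24 tested genes of the unfolded protein response 6 rose, none fell and 18 were not called, 5 estimates were negative, and the median was 0.18. The endoplasmic reticulum stress element, searched on both strands as CCAAT and CCACG with 9 bases of any kind between them, lay in 0.158% of the 8244 promoters, in 8 of 21 of this list and in 3 of the 5 called members with an entry. Stretches of those 3 called promoters are printed with the element in capitals:
Calr, chr8:84847045-84847123, minus strand: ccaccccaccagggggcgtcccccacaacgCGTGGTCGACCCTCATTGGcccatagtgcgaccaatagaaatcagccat
Hsp90b1, chr10:86705503-86705581, minus strand: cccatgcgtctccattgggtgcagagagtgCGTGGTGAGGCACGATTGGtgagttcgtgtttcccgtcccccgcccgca
Pdia6, chr12:17266461-17266539, plus strand: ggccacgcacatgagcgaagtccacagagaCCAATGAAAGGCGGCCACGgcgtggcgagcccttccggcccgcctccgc
In Calr and Hsp90b1 the match lies on the strand opposite to the gene, and Hsp90b1 has another match farther upstream that is not printed. The element was in 3 of 121 promoters of higher genes (2.48%), which are the same 3 genes of this list. It was in 0 of 293 promoters of lower genes and in 0.128% of those not called. These matches too describe letters, not binding.

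Pdia6, a protein disulphide isomerase, rose from 75.2, 74.7 and 78.6 to 108, 103 and 114 FPKM (0.50, SE 0.06, adjusted p = 0.00769) and was kept. Calr, the lectin chaperone calreticulin, outside the naming rule, rose from 100, 97.5 and 118 to 165, 147 and 210 FPKM (0.71, SE 0.13, adjusted p = 0.0265), and Hsp90b1, the chaperone GRP94, from 146, 142 and 171 to 235, 223 and 241 (0.60, SE 0.09, adjusted p = 0.0145). In each gene every 1% library lay above every 21% library. Sdf2l1 and Manf, a chaperone cofactor and a secreted stress protein, rose by 0.70 and 0.57 (adjusted p = 0.0215 and 0.0258), and Sec61b, of the translocation channel, by 0.36 (adjusted p = 0.0255). Hspa5, the main luminal chaperone BiP, measured 484, 525 and 376 against 586, 470 and 779 FPKM (0.39, 95% interval −0.04 to 0.82, adjusted p = 0.258), with overlapping groups and a high 1% replicate 3. The calls other than Pdia6 were each lost without 1% replicate 1 and without any of 2 further libraries, or 3 for Sec61b, among 1% replicates 2 and 3 and 21% replicates 1 and 2 (adjusted p between 0.0503 and 0.109). The list held 1 call in the fit to the 6 libraries, 1 without 1% replicate 1, 2 without 21% replicate 1 or 2, 4 and 5 without 1% replicates 2 and 3 and 7 higher and 1 lower without 21% replicate 3.

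Targets of YAP and TAZ, coactivators that respond to cell shape and tension through TEAD factors, included some of the largest rises. Of 32 tested genes of the pathway 5 rose and none fell, with 19 estimates above 0 and a median of 0.06. The share called was 15.6%, against 4.58% of all genes, while the middle of the list lay near that of all genes. At an unadjusted p under 0.05, 11 of the 32 were higher and 5 lower. Without overlap between the levels 13 were higher and 9 lower, against 9.07% and 19.6% of all genes. The TEAD element GGAATG, searched on both strands, lay in 11.4% of promoters, in 13 of 24 of this list and in the promoters of Ccn1, Amotl2 and Ankrd1, the 3 called members with an entry:
Ccn1, chr3:145650053-145650118, minus strand: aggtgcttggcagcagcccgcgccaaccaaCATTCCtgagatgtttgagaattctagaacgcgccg
Amotl2, chr9:102717709-102717774, plus strand: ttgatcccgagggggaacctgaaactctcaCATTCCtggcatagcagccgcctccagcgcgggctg
Ankrd1, chr19:36119932-36119997, minus strand: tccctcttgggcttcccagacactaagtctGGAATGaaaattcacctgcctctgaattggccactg
Capitals mark the element, which in Ccn1 and Amotl2 reads on the opposite strand, and Ankrd1 has another match farther upstream. Among called genes 19.8% of higher and 10.2% of lower promoters held it.

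Ccn1, a matricellular protein that binds integrins (chromosome 3, 145646976 to 145649981), rose from 332, 295 and 264 to 672, 739 and 645 FPKM (1.21, SE 0.09, adjusted p = 0.00131). Thbs1, thrombospondin 1, an inhibitor of vessel growth and activator of TGF-beta, rose from 111, 120 and 83.5 to 236, 242 and 244 FPKM (1.21, SE 0.12, adjusted p = 0.00577). Ccn2, connective tissue growth factor, rose from 32.2, 24.6 and 23.3 to 63.0, 65.2 and 60.0 FPKM (1.22, SE 0.17, adjusted p = 0.0126). In these 3 genes the lowest 1% library stood well above the highest 21% library. Amotl2, an angiomotin that holds YAP in the cytoplasm, rose by 0.81 (adjusted p = 0.00659), and Ankrd1, a muscle ankyrin repeat protein used as a YAP readout, by 0.62 (adjusted p = 0.0200). Ccn1, Thbs1 and Amotl2 were kept, whereas Ccn2 and Ankrd1 lost their calls without 1% replicate 1 or 2 (adjusted p between 0.0564 and 0.0882), which leaves 3 calls on the list in each case.

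Of 23 tested actin cytoskeleton and SRF target genes 4 rose, none fell and 19 were not called (17.4% called against 4.58% of all genes), with a median of 0.13 and 7 negative estimates. Cnn2, calponin 2, rose from 70.5, 69.6 and 60.1 to 96.8, 103 and 91.1 FPKM (0.53, SE 0.07, adjusted p = 0.0128), Vcl, vinculin, by 0.48 (adjusted p = 0.0148), Myh9, nonmuscle myosin, by 0.31 (adjusted p = 0.0267) and Tpm4, a tropomyosin, by 0.28 (adjusted p = 0.0377). Itga5 and Itgb5, integrin chains of the fibronectin and vitronectin receptors, rose by 0.29 and 0.32 (adjusted p = 0.0299 and 0.0173), the 2 calls (8.0%) among 25 integrin, laminin and basement membrane genes. None was kept: Cnn2 and Itgb5 were lost without 1% replicate 1 or 2, Myh9, Tpm4 and Itga5 without any of 1% replicates 1, 2 and 3 or 21% replicates 1 and 2 (adjusted p between 0.0503 and 0.143), and Vcl in the fit to the 6 libraries (adjusted p = 0.0611). The actin list had no call in the fit to the 6 libraries (9 higher and none lower at an unadjusted p under 0.05 with all 9). Without 1% replicate 1 or 2 it had 1 call, and without 1% replicate 3, 21% replicate 1 or 21% replicate 2 it had 2.

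Among 28 secreted factors that act on vessels, 15 were tested. Of these 15 genes 6 rose and none fell, so 40.0% were called against 4.58% of all genes. The median was 0.13, 11 estimates were above 0 and 4 below it, and Vegfa was not among them. Besides Adm, Ccn1 and Thbs1, these were Angptl7, Pdgfb and the placental growth factor gene. Angptl7, an angiopoietin-like protein of the corneal stroma (chromosome 4, 148495183 to 148500460), rose from 4.07, 4.94 and 2.58 to 11.8, 17.1 and 12.9 FPKM (1.64, SE 0.19, adjusted p = 0.00719), and was kept. Pdgfb, a platelet-derived growth factor chain, rose from 9.93, 9.97 and 9.05 to 13.6, 14.6 and 13.1 FPKM (0.47, adjusted p = 0.0108, and 0.0505 without 1% replicate 1). The list thus joins agents known to promote vessels and agents known to restrain them. With single libraries left out it held 3 to 6 calls, fewest without 1% replicate 1. Plau, the urokinase-type plasminogen activator, rose from 51.6, 41.8 and 50.2 to 65.3, 69.9 and 63.4 FPKM (0.46, adjusted p = 0.0267), a call lost without any of 1% replicates 1, 2 and 3 or 21% replicate 1 (between 0.0505 and 0.11).

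The largest rises among called genes lay in the mitochondrial genome. Of 22 mitochondrial tRNA genes, 14 passed the filter and were tested. Of these, 6 rose and none fell, with a median of 0.91 and 13 estimates above 0. Leaving out single libraries gave 4 to 8 calls, fewest without 1% replicate 1. The filter could favour rises here, since mt-Th averaged 0.596 FPKM at 21% and 1.70 at 1%, and mt-Tr 0.863 and 2.12. The 22 genes with no filter on low values had a median of 0.55 and 3 negative estimates, with 6 called higher and none lower. Of the 13 mRNA genes of the same genome none was called (adjusted p), 2 were higher and 1 lower at an unadjusted p under 0.05, and the median was 0.01. Of the 6 called tRNA genes 4, for alanine, asparagine, cysteine and tyrosine, are neighbours on the minus strand between mt-Nd2 and mt-Co1 and flank the origin of light-strand replication. They are printed with mt-Tl1, the tRNA for leucine that follows the 16S rRNA on the plus strand, as annotated in GENCODE M21 on GRCm38, 5′ to 3′ on the gene's strand, with the anticodon in capitals:
mt-Ta, chrM:5018-5086, minus strand: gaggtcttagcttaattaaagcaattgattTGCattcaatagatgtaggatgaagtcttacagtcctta
mt-Tn, chrM:5089-5159, minus strand: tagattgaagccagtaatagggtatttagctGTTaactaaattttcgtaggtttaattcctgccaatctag
mt-Tc, chrM:5192-5257, minus strand: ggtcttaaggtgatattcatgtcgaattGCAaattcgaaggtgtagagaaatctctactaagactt
mt-Ty, chrM:5260-5326, minus strand: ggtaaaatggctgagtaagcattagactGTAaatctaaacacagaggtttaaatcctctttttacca
mt-Tl1, chrM:2676-2750, plus strand: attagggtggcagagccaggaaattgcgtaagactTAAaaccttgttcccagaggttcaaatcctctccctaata
These genes are 66 to 75 bases long, and libraries of polyadenylated RNA capture mature tRNAs poorly, so their FPKM may also count fragments of longer precursor or antisense RNA, which these values cannot tell apart.

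In the minus-strand cluster mt-Tn rose from 22.4, 21.1 and 17.4 to 74.1, 89.2 and 76.8 FPKM (1.93, SE 0.12, adjusted p = 0.000359). mt-Ta rose from 14.5, 13.1 and 11.3 to 43.3, 54.7 and 46.0 FPKM (1.81, SE 0.13, adjusted p = 0.000953). mt-Tc rose from 10.4, 9.96 and 9.21 to 35.0, 36.3 and 33.1 FPKM (1.72, SE 0.06, adjusted p = 1.35e-05). The libraries of each level stood close together in these 3 genes, all of which were kept. mt-Ty rose from 3.57, 4.09 and 4.18 to 10.9, 7.88 and 9.66 FPKM (1.07, SE 0.15, adjusted p = 0.0133, and 0.0565 without 1% replicate 1). All 7 tested minus-strand genes had estimates above 0 and 5 were called, the fifth being mt-Te, for glutamate, at 0.39 (adjusted p = 0.0242). The exceptions were mt-Tp (0.64, adjusted p = 0.339) and the minus-strand mRNA mt-Nd6 (0.39, adjusted p = 0.0714, and 0.048 without 21% replicate 2).

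On the plus strand 15 of 22 tested genes had estimates above 0, with a median of 0.23, and 2 were called. Of these 22, the 8 tRNA genes had 7 estimates above 0 and a median of 0.75, and the 12 mRNA genes had 6 and 0.0042. These tRNA genes include mt-Th and mt-Tr, whose rises the filter could favour as described above. Since 6 of the 7 minus-strand genes are tRNA genes, strand and kind of RNA are mixed here. The plus-strand tRNA gene mt-Tw, which adjoins the minus-strand cluster, had an estimate of 1.05 (adjusted p = 0.0629). mt-Tl1 rose from 106, 97.0 and 127 to 228, 246 and 202 FPKM (1.04, SE 0.11, adjusted p = 0.00645) and was kept. mt-Rnr1, the 12S rRNA, rose from 72.6, 87.3 and 78.0 to 116, 114 and 103 FPKM (0.48, adjusted p = 0.0253). The mRNA genes on either side of the minus-strand cluster, mt-Nd2 and mt-Co1, had estimates of 0.01 and 0.25 (adjusted p = 0.974 and 0.265). The calls of mt-Te and mt-Rnr1 were lost without 1% replicate 1 or 2, that of mt-Te also without 1% replicate 3 or 21% replicate 2 and that of mt-Rnr1 without 21% replicate 1 (adjusted p between 0.0506 and 0.107). mt-Te, mt-Rnr1, mt-Nd6 and mt-Nd2 were named after their values were seen, and differences between strands or kinds of RNA were not tested.

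**Figure D4:**
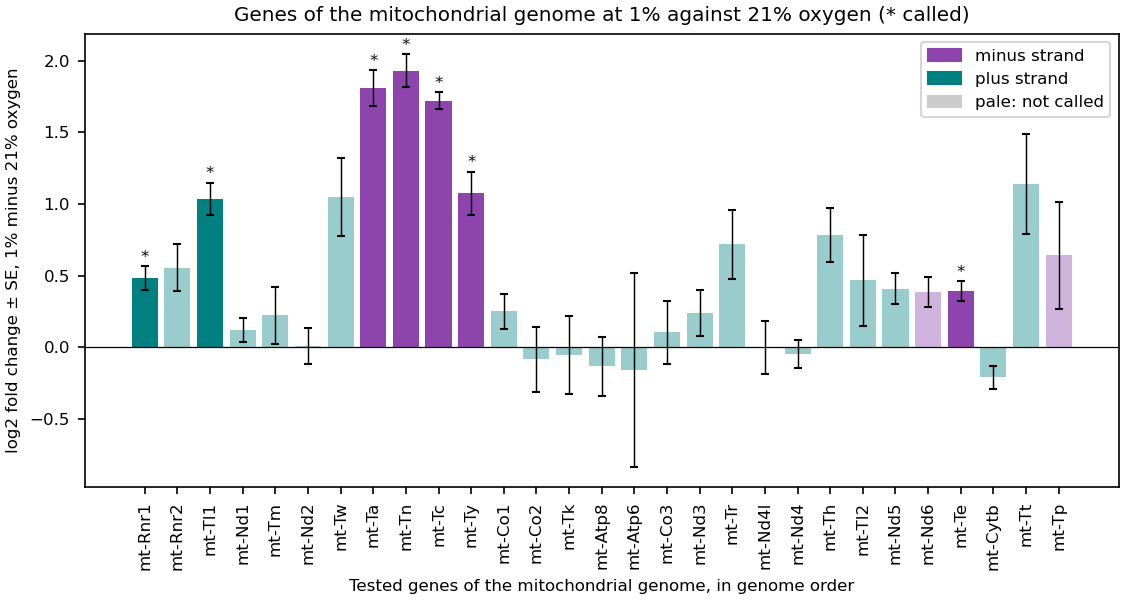
Log2 fold change (1% minus 21% oxygen, bars ± SE) of the 29 tested genes of the mitochondrial genome in genome order, purple for the minus and green for the plus strand, with called genes in full colour and starred. The cluster mt-Ta, mt-Tn, mt-Tc and mt-Ty stands at 1.07 to 1.93 between mt-Nd2 and mt-Co1, which were not called.

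Mitophagy, the process in the series title, showed no called gene among 28 tested receptors and regulators by limma at the adjusted threshold. The median was 0.03. At an unadjusted p under 0.05, 3 of the 28 were higher and 5 lower, against 2741 of all 11607 genes in either direction. Bnip3, the HIF-induced receptor on the outer mitochondrial membrane, measured 28.9, 20.3 and 55.6 FPKM at 21% and 58.1, 52.2 and 41.3 at 1% (0.63, 95% interval −0.10 to 1.36, adjusted p = 0.276). 21% replicate 3 lay within the 1% range, and without it Bnip3 passed (adjusted p = 0.0328). Bnip3l, its paralogue NIX, measured 77.5, 63.7 and 88.8 against 97.8, 101 and 82.4 FPKM (0.29, 95% interval −0.01 to 0.60, adjusted p = 0.230). Fundc1, a receptor studied in hypoxia, measured 12.3, 13.6 and 13.2 against 14.1, 15.0 and 13.6 FPKM (0.12, adjusted p = 0.281). In both genes 21% and 1% libraries overlapped. Pink1, the kinase that marks damaged mitochondria, had an estimate of 0.18 (adjusted p = 0.193), and Sqstm1, the cargo adaptor p62, measured 238, 253 and 193 against 174, 167 and 209 FPKM (−0.31, adjusted p = 0.150, and 0.041 without 21% replicate 3). With 21% replicate 3 left out the list had 2 higher and 2 lower, and 1 gene was higher after either rescaling and with a mean of at least 5 FPKM required. Among 32 genes of the autophagy machinery Gabarap, a membrane-anchored modifier, rose by 0.24 (adjusted p = 0.0283) and Atg3, the enzyme that attaches it to lipid, fell by 0.31 (adjusted p = 0.0412), both lost without any of 1% replicates 1, 2 and 3 or 21% replicates 1 and 2 (adjusted p between 0.0506 and 0.146). They were the only calls of the autophagy machinery list, 6.25% of it, near the 4.58% of all genes.

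Among nuclear genes for mitochondria the share called was 8.33% for complex I and 5.0% for complexes II to V. It was 8.33% for import, chaperones and proteases, 4.76% for mitochondrial DNA maintenance and 0.0% for the TCA cycle. The share over all genes was 4.58%. Uqcrh, the hinge subunit of complex III, rose from 43.7, 43.0 and 45.1 to 66.2, 65.1 and 66.0 FPKM (0.57, SE 0.06, adjusted p = 0.00586) and was kept. In complex I, Ndufb10 rose by 0.44 (adjusted p = 0.0144) while Ndufa9 fell from 25.7, 25.1 and 25.7 to 19.6, 19.9 and 19.5 FPKM (−0.36, adjusted p = 0.00926), among 2 higher and 1 lower of 36 subunits tested. The other 40 subunits, of complexes II to V, had 2 higher and none lower. Parl, the inner membrane protease that cleaves PINK1, fell from 7.12, 7.56 and 7.32 to 5.18, 5.19 and 5.06 FPKM (−0.44, SE 0.05, adjusted p = 0.00765) and was kept, and Tomm40, the import pore, fell by 0.38 (adjusted p = 0.0196), among 1 higher and 3 lower of 48 import, chaperone and protease genes. Tfam, which packages and transcribes mitochondrial DNA, fell from 10.3, 11.6 and 11.8 to 8.40, 8.15 and 8.06 FPKM (−0.41, SE 0.07, adjusted p = 0.0253), the 1 call among 21 genes of mitochondrial DNA maintenance. No gene of the TCA cycle list was called (27 tested by limma, 2 higher and 3 lower at an unadjusted p under 0.05). Ndufb10 and Ndufa9 lost their calls without 1% replicate 1 (adjusted p = 0.0651 and 0.0541), and Tomm40 and Tfam without any of 1% replicates 1, 2 and 3, Tomm40 also without 21% replicate 1 and Tfam without 21% replicate 2 (between 0.0502 and 0.104).

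Among signalling genes 2 kinases gave kept calls. Mapk14, which encodes the stress kinase p38 alpha (chromosome 17, 28691329 to 28748406), fell from 17.0, 17.7 and 17.7 to 7.87, 7.89 and 5.57 FPKM (−1.20, SE 0.12, adjusted p = 0.00509), and Map3k5, the upstream kinase ASK1, from 5.49, 5.05 and 5.10 to 3.43, 2.99 and 3.00 (−0.59, SE 0.07, adjusted p = 0.00719). Both were kept and they were the 2 calls among 17 genes of the p38 list, 11.8% against 4.58% of all genes. Of 20 genes that report ERK activity 4 fell and none rose, with a median of −0.15 and 8 estimates above 0. The fit to the 6 libraries gave 1 higher and none lower, median-ratio rescaling 1 higher and 2 lower, a mean of at least 5 FPKM 2 higher and 4 lower, and no filter no call. Areg, the EGF receptor ligand amphiregulin, fell from 28.6, 27.9 and 31.8 to 16.2, 9.73 and 15.6 FPKM (−1.06, SE 0.18, adjusted p = 0.0236), and Etv5, an ETS factor induced by ERK, by 0.85 (adjusted p = 0.0269). The feedback inhibitors Spred1 and Spred2 fell by 0.39 and 0.33 (adjusted p = 0.0420 and 0.0472). None of the 4 was kept: Areg was lost without 1% replicate 1 or 21% replicate 1, Etv5 also without 1% replicates 2 or 3, Spred1 also without 1% replicates 2 or 3 or 21% replicate 2, and Spred2 also without 1% replicate 2 or 21% replicates 2 or 3 (adjusted p between 0.0541 and 0.146). The list had no call without 1% replicate 1 or 21% replicate 1, 1 without 1% replicate 2, 2 without 1% replicate 3 or 21% replicate 2 and 3 without 21% replicate 3.

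A few inflammatory genes rose. Il1rl1, the receptor of the alarmin interleukin 33 (chromosome 1, 40429570 to 40465415), rose from 6.83, 6.11 and 8.01 to 14.7, 14.3 and 14.8 FPKM (0.97, SE 0.09, adjusted p = 0.00388). Cxcl5, a neutrophil chemokine, rose from 428, 420 and 426 to 664, 632 and 569 FPKM (0.55, SE 0.07, adjusted p = 0.00832). Ccl9, a myeloid chemokine named after its values were seen, rose from 3.06, 2.77 and 3.08 to 6.71, 6.77 and 5.53 FPKM (0.88, adjusted p = 0.00599). These 3 were kept. Of 21 tested cytokine and chemokine genes 4 rose and none fell, 19.0% called against 4.58% of all genes. Besides Il1rl1 and Cxcl5 these were Csf1 and Il6 at 0.26 and 0.35 (adjusted p = 0.0491 and 0.0429), which lost their calls without any of 1% replicates 1, 2 and 3 or 21% replicates 1 and 2, Csf1 also without 21% replicate 3 (adjusted p between 0.0597 and 0.151). None of 19 NF-kappaB subunits and inhibitors was called by limma, with 3 higher at an unadjusted p under 0.05. Arid5a, which protects cytokine mRNAs from decay, was kept and fell from 3.00, 2.98 and 3.32 to 1.22, 1.15 and 1.27 FPKM (−0.89, adjusted p = 0.00586), named after its values were seen.

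Metal transport and cell cycle genes complete the called set. Slc39a14, the zinc and iron importer ZIP14, fell from 16.5, 15.7 and 15.8 to 8.19, 6.58 and 7.97 FPKM (−0.99, SE 0.09, adjusted p = 0.00388) and was kept, while Ftl1, the ferritin light chain, rose by 0.31 (adjusted p = 0.0287) and lost its call after quantile normalization (0.196) and without any of 1% replicates 1, 2 and 3 or 21% replicate 1 (0.0827 to 0.113). Of 53 DNA replication genes 2 fell, the origin recognition subunits Orc2 and Orc5, at −0.48 and −0.34 (adjusted p = 0.00803 and 0.0412). The share called was 3.77%, near the 4.58% of all genes. Orc2 was kept, and Orc5 was lost with any single library left out (0.0514 to 0.131). The median of that list was −0.14 and turned to 0.13 without 21% replicate 3, the library with high cell cycle genes. None of 44 mitosis genes was called by limma (0 at an unadjusted p under 0.05). Trp53, the tumour suppressor p53, fell from 16.6, 18.4 and 13.3 to 8.60, 7.86 and 11.6 FPKM (−0.73, adjusted p = 0.0377), and Bbc3, its proapoptotic target PUMA, by 0.42 (adjusted p = 0.0241). Both lost their calls without 1% replicate 1 or 2 or 21% replicate 1, Trp53 also without 21% replicate 2 and Bbc3 without 1% replicate 3 (0.0509 to 0.132).

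Markers of cell types were read beside these groups, since in bulk RNA fewer cells of a type and less RNA per cell cannot be told apart. Of 8 tested simple epithelium markers all had estimates above 0 and 2 rose. The keratin Krt19 rose from 43.7, 39.3 and 48.1 to 62.3, 64.2 and 61.3 FPKM (0.51, adjusted p = 0.0180). The call was lost without 1% replicate 1 or 2 or 21% replicate 1 (0.0625 to 0.0815). Krt18 measured 503, 447 and 543 against 595, 648 and 562 FPKM (0.27, adjusted p = 0.0997, and 0.0424 without 21% replicate 3). The summed level of the 12 markers was 1278 to 1592 FPKM at 21% and 1570 to 1804 at 1%. Krt8, the basal keratin Krt14 and vimentin (Vim) had estimates of 0.12, 0.31 and 0.07 (adjusted p = 0.607, 0.395 and 0.540).

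Markers of other cell types were read by their summed levels. Of 14 tested stratified and corneal epithelium markers none was called, with 2 higher at an unadjusted p under 0.05, and the 25 in the table summed to 303 to 365 FPKM at 21% and 342 to 371 at 1%. Stromal markers summed to 1457 to 1872 at 21% and 1730 to 1958 at 1%, with Vim the highest of them and the keratocyte proteoglycan gene Lum at 0 in all 6 libraries and Angptl7 as the only call of 8 tested. Leukocyte markers summed to 25.6 to 35.0 FPKM at 21% and 38.2 to 46.6 at 1%, ranges that did not overlap, with Cd68 the highest of them, the macrophage gene Adgre1 at 0 and neither of the 2 tested genes called (1 higher at an unadjusted p under 0.05). Endothelial markers summed to at most 2.10 FPKM, with Prox1 at 0, nerve and melanocyte markers to at most 2.04, and goblet cell markers to at most 0.922, with Muc5b at 0. The part of these shifts in the gene groups above was not tested.

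**Figure D5:**
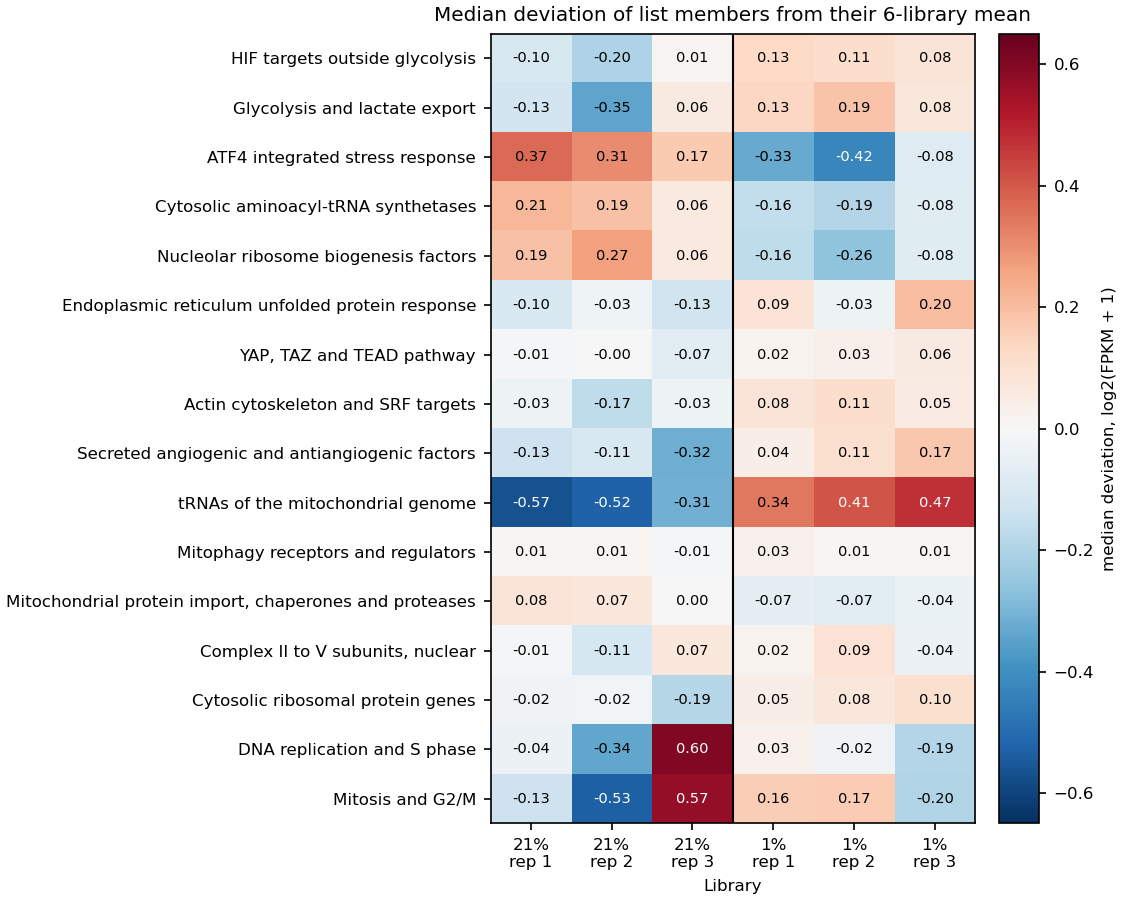
Median deviation of list members from their own 6-library mean on the log2(FPKM + 1) scale, for 16 lists (rows) in the 3 libraries at 21% (left) and the 3 at 1% (right). ATF4 genes are above 0 in all 21% libraries (0.37, 0.31 and 0.17) and below it in all 1% libraries, while mitosis genes vary within 21% (−0.13, −0.53 and 0.57) more than between the levels.

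The 1% libraries were tested against the 8% libraries to see which of these changes belonged to the lower level. Of the 11607 genes 14 (0.121%) differed, 8 higher (0.0689%) and 6 lower (0.0517%) at 1%, and 6 of these were among the 532. Lsm12 was lower at 1% than at either other level. mt-Tl1 and mt-Te were higher at 1% than at either, mt-Tl1 at 85.0 FPKM at 8% (1% above 8% by 1.40, adjusted p = 0.00677). Il1rl1 was highest at 8%, with a mean of 27.1 FPKM, so that 1% lay above 21% but below 8% by 0.85 (adjusted p = 0.0265), and the interleukin 18 receptor chain Il18rap and the protease Adamts7, outside the naming rule, had the same order (1% below 8% by 0.49 and 0.44, adjusted p = 0.0431 and 0.0477). Their calls against 21% were lost without any of 1% replicates 1 and 2 or 21% replicates 1 and 2, for Adamts7 with any library left out (adjusted p between 0.0528 and 0.129), and that of mt-Te as given above. With single 1% or 8% libraries left out, a check added after seeing the data, between 1 and 7 genes were called. For the other genes called against 21% a difference between 1% and 8% was not shown, which does not show that the levels acted alike. mt-Nd1 and mt-Cytb, which lie outside the naming rule and were not called against 21%, were higher at 1% than at 8% by 0.66 and 0.65 (adjusted p = 0.0431 and 0.0391).

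Other transcript classes and gene features were read last. Of 108 tested snoRNA genes 5 fell and none rose. The share called was 4.63%, near the 4.58% of all genes, of which 3.14% of all genes were lower. Each of the 5 lay inside a host gene on the same strand that was not called. Snord49b, a box C/D snoRNA (chromosome 11, 62603079 to 62603150), fell from 10.7, 8.07 and 8.12 to 3.28, 2.49 and 3.82 FPKM (−1.25, SE 0.23, adjusted p = 0.0283) within the host 2410006H16Rik, whose estimate was 0.08 (adjusted p = 0.855). Gm22620, in Taf1d and outside the naming rule, was kept and fell by 1.02 (adjusted p = 0.00803) against 0.05 for its host. Fragments this short are captured poorly, so these values are uncertain. The call of Snord49b was lost without any of 1% replicates 1, 2 and 3 or 21% replicates 1 and 2 (0.0522 to 0.114). The calls of a further pair of genes with large rises depended on single libraries: Upk3bl, a uroplakin family gene, at 0.97 (adjusted p = 0.0435, lost without any of 1% replicates 1, 2 and 3 or 21% replicate 1, 0.0853 to 0.151), and Gm5559, which was 166, 208 and 258 FPKM at 21% and 762, 535 and 316 at 1% (1.28, adjusted p = 0.0491, lost without 1% replicate 1 or 2 or 21% replicate 1 or 2, 0.092 to 0.159).

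Structure and level of the called protein-coding genes were set beside those of all tested ones. The median length of the longest transcript was 2803 bases for 152 higher and 3482 for 349 lower genes, against 3383 for all 10012 tested, and the median number of exons was 5, 10 and 8. Median GC content was 51.1%, 49.7% and 49.8%, and median level over the 6 libraries was 19.2, 11.2 and 7.95 FPKM. These are descriptions without a test.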

How the data were processed

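The authors deposited gene-level FPKM for 9 libraries. Build mm10 and StringTie 1.3.4d, HISAT2 2.0.4, cutadapt 1.9.1 and FastQC 0.11.8 are named in, and credited to, the submitters' processing notes. The annotation release and strand setting were not given in those sources, so reads shared with pseudogenes, overlapping or antisense genes may have been divided in an unknown way. The values are not counts, and depth is unknown.

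Values were analysed as log2(FPKM + 1), which understates changes of low genes, with limma 3.58.1 in R 4.3.3: group means over all 9 libraries, a mean-variance trend, two-sided tests, and Benjamini-Hochberg adjustment within each comparison, called at 0.05. The fit was tested on simulated data. Of 11607 genes 11599 matched GENCODE M21 by identifier; of entries sharing a symbol the higher one entered a list. Promoters came from RefSeq.

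Members and the 47 gene lists were chosen with earlier results of these data known. Named genes are the 12 largest changes per direction (mean of at least 5 FPKM), up to 5 called and 3 uncalled members of each list, 24 hypoxia, mitophagy and identity genes, and the genes at the filter's edge; others are marked. Alternatives were a pseudocount of 0.1, other filters, rescaling, weights, a replicate block, 6 libraries and leaving out each library. Some genes are not reported here.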

Additional observations from a re-analysis of the deposited data

How the results depend on the processing

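Calls at 1% against 21% numbered 532 (168 higher, 364 lower). They numbered 222 (76 and 146) with no filter, 74 (31 and 43) in the fit to 6 libraries and 4658 (1513 and 3145) with library weights, whose estimation did not converge and put a weight of 16 on 21% replicate 1. Lower calls numbered 192 after quantile normalization and 193 after median-ratio rescaling. With single libraries left out, calls ranged from 64 to 915, higher calls from 22 to 278 and lower calls from 42 to 637. A pseudocount of 0.1 gave 494 and a mean of at least 5 FPKM gave 619. Same-numbered libraries of the 2 levels deviated from their level means with correlations over genes of −0.10, −0.14 and −0.31. The labels do not say whether the numbers pair libraries. With 3 libraries per level and cell cycle differences within 21%, these correlations cannot decide it. The replicate block gave 74 calls (32 higher, 42 lower), all among the 532. Calls between 1% and 8% numbered 14, 1 with the replicate block, and 1 to 7 with single libraries left out. The cause of these differences was not tested, and each reduced fit also rests on fewer libraries.

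No called gene named here changed sign in any alternative. Signs of uncalled genes turned under quantile normalization for Vim (−0.10), Krt8 (−0.022) and Ndrg1 (−0.13). With single libraries left out, values crossed 0 for Pdk1 (−0.046 without 21% replicate 2, up to 0.36), Slc2a1 (−0.029 without 1% replicate 3, −0.012 without 21% replicate 2, up to 0.11), Krt8 (−0.0019 without 21% replicate 2, up to 0.26) and Gapdh (−0.024 without 1% replicate 1, up to 0.84).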
